A study of Rattus norvegicus with 6 samples.

Results

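Immediate early genes are the first genes that cells transcribe after a stimulus, and 10 of them were examined here by their gene names in the deposited table of 33508 genes: Fos, Fosl1, Fosl2, Jun, Junb, Jund, Egr1, Ier2, Atf3 and Zfp36. All 10 had 1 row in the table, and all 10 were among the 12104 genes with enough counts to test. The table places Fosl1 and Zfp36 on chromosome 1, Jun on 5, Fos and Fosl2 on 6, Atf3 on 13, Jund on 16, Egr1 on 18, and Junb and Ier2 on 19, and no row of another gene overlaps any of them. The rows of Jun, Junb and Jund span exactly their own length, as gene models without introns do. They code for AP-1 subunits, for other early transcription factors, and for a factor that shortens the life of mRNA.

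RNA was sequenced from bone marrow mesenchymal stem cells (BMSCs) of 2-month-old male Sprague-Dawley rats, cultured and passaged before use. BMSCs-OE-FNDC5 carried a lentivirus that overexpresses FNDC5, the membrane protein from which the secreted peptide irisin is cut, and BMSCs-OE-NC carried the blank vector control. Both groups were then kept for 24 h in hypoxia and serum deprivation (H/SD), without glucose or serum, in a gas of 1% O2, 94% N2 and 5% CO2. Each group had 3 libraries, and the question was what FNDC5 overexpression does to gene expression in cells under H/SD. No library of uninjured cells was analysed here, so the comparison was between the vectors and not between H/SD and normal culture. The promoter of the transgene and the number of rats behind the libraries are not given in the sources used here, and the labels call the libraries biological replicates without saying whether cultures or animals were repeated. P-values therefore measure the spread between these libraries.

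Immediate early genes need no new protein to be switched on. Kinase cascades such as ERK, JNK and p38 act on factors already bound at their promoters, among them serum response factor (SRF) with its ternary complex partners at CArG boxes and CREB at cAMP response elements. Fos and Jun proteins pair through leucine zippers to form AP-1, which binds the sequence TGAGTCA, and Jun proteins can also pair with each other while Fos proteins need a partner. Many of these mRNAs carry AU-rich elements and are degraded within a short time, so that the mRNA level follows both synthesis and decay. In mesenchymal cells AP-1 takes part in proliferation, matrix turnover and bone formation, and Egr1 in the response to growth factors and injury.

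The promoters of these genes were read from RefSeq (rat build GRCr8) in windows of 300 bases, 250 before the start of the gene and 50 from the start on. Windows were found for 7 of the 10 genes, and Fos, Jun and Atf3 had no entry. Letters of 6 motifs were searched on both strands: the CArG box, the cAMP response element (CRE, TGACGTCA), the AP-1 site (TGAGTCA), the Egr site (GCGGGGGCG or GCGTGGGCG), the GC box (GGGCGG) and the ETS core (CCGGAA). CArG boxes, held by 1.64% of all 33469 promoter windows, were found in Egr1 and Zfp36, and CREs, held by 1.83%, in Jund and Ier2. The 4 stretches below are shown because they hold these elements, in capitals, and are written 5′ to 3′ on the strand of the gene.
Egr1, chr18:26736948-26737027, plus strand: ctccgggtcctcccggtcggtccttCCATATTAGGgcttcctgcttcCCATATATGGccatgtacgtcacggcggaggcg
Zfp36, chr1:92799119-92799198, minus strand: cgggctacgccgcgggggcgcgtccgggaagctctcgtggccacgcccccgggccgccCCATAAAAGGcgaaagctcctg
Jund, chr16:18769942-18770021, minus strand: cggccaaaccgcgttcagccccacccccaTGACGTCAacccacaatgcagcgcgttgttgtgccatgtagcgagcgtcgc
Ier2, chr19:40399263-40399342, plus strand: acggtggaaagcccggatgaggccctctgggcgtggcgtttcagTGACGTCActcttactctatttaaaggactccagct
Relative to the start of the gene, the CArG boxes of Egr1 lay at -105 to -96 and -83 to -74 and that of Zfp36 at -32 to -23, and the CREs lay at -221 to -214 in Jund and -66 to -59 in Ier2. The Egr site, held by 3.2% of windows, was found in Fosl2, Jund and Zfp36, and in Fosl2 and Jund it overlapped a GC box, a motif held by 33.1% of windows. The last base of a GC box in Zfp36, at -37 to -32, was the first of its CArG box. Of the 7 windows, 1 held the ETS core, in Ier2 at -16 to -11 (15% of all windows), and none held the letters of the AP-1 site (4.63% of all windows). Such matches describe letters in a window and do not show binding.

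Total counts were 16640635 to 17229490 in BMSCs-OE-FNDC5 libraries and 17430287 to 17965722 in BMSCs-OE-NC libraries, and the 10 genes together took 0.191% to 0.196% and 0.200% to 0.209% of them. Fndc5 had 65589, 64672 and 64195 counts in BMSCs-OE-FNDC5, against 22, 17 and 25 in BMSCs-OE-NC, as the labels say. Levels are given below as CPM (counts relative to the size of the library) after TMM scaling, which sets the bulk of genes equal between libraries, and log2 fold changes, positive where BMSCs-OE-FNDC5 was higher, are from edgeR's quasi-likelihood test with Benjamini-Hochberg adjustment over all tested genes. The scaling factors were 0.877 to 0.882 in BMSCs-OE-FNDC5 and 1.13 to 1.14 in BMSCs-OE-NC, and the median over all genes lay -0.37 away on the log2 scale when library size alone set the scaling (-0.10 with upper-quartile scaling), a shift that applies to every gene alike. Mesenchymal markers summed to 14500 to 15000 CPM in BMSCs-OE-FNDC5 and 12700 to 13100 CPM in BMSCs-OE-NC, and by library size only to 12800 to 13200 and 14300 to 14900 CPM, the other way round. Vim (6321 and 3302 CPM) took the largest part of the sum. Of 13 tested markers 5 were higher, 7 lower and 1 did not pass at an adjusted p under 0.05, with a median log2 fold change of -0.34. Over all tested genes 36.9% were higher and 38.8% lower. The largest falls among the markers were Pdgfra (-1.86) and Cxcl12 (-1.72), and the largest rises Thy1 (1.29) and Vim (0.94). Of the markers of other cells, the macrophage list summed to 199 to 207 CPM in BMSCs-OE-FNDC5 and 103 to 109 CPM in BMSCs-OE-NC, most of it Cd14, with its defining genes Ptprc and Adgre1 at 0 and Cd74 at 0.535 and 5.03 CPM. The erythroid list summed to 2.93 to 4.04 CPM in BMSCs-OE-FNDC5 and 5.65 to 6.33 CPM in BMSCs-OE-NC, with globin genes at 0, Klf1 higher (log2 fold change 1.32) and Tfrc lower (-2.25). The endothelial and retinal lists each summed to under 1 CPM, with Cdh5, Kdr and Crx at 0. In bulk RNA, fewer cells of a kind and less RNA per cell cannot be told apart.

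The immediate early genes did not move as one group. At an adjusted p under 0.05, Fosl1, Junb, Jund, Ier2 and Atf3 were higher in BMSCs-OE-FNDC5 and Fos, Fosl2, Jun, Egr1 and Zfp36 were lower, where by library size only Junb and Ier2 turned to lower values. The 5 higher and 5 lower genes stand beside 36.9% of all tested genes that were higher and 38.8% that were lower, 75.7% in either direction. The BMSCs-OE-FNDC5 and BMSCs-OE-NC libraries did not overlap in any of the 10 genes, as in 78.3% of all tested genes, so neither count sets these genes apart. Their median log2 fold change was 0.05 (-0.04 over all tested genes) and turned to -0.06 with upper-quartile scaling and -0.32 by library size only, and their median absolute log2 fold change was 0.51 (0.62 over all tested genes). None of the 10 also passed an absolute log2 fold change over 1, at the adjusted or at an unadjusted p under 0.05, with edgeR, and the count was 0 also with DESeq2 and with limma-voom. Of all tested genes 27.4% passed both thresholds, and 35.8% had a larger absolute log2 fold change than Jund at 0.85. In size Egr1 and Fos exceeded Jund with upper-quartile scaling, and Egr1, Fos, Zfp36, Fosl2 and Jun exceeded it by library size only, where Jund was at 0.48. With the trend of counts with gene length removed, Fos, Fosl2 and Atf3 exceeded it. By library size only, Fos and Egr1 passed both thresholds, at log2 fold changes of -1.03 and -1.06.

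**Figure D1:**
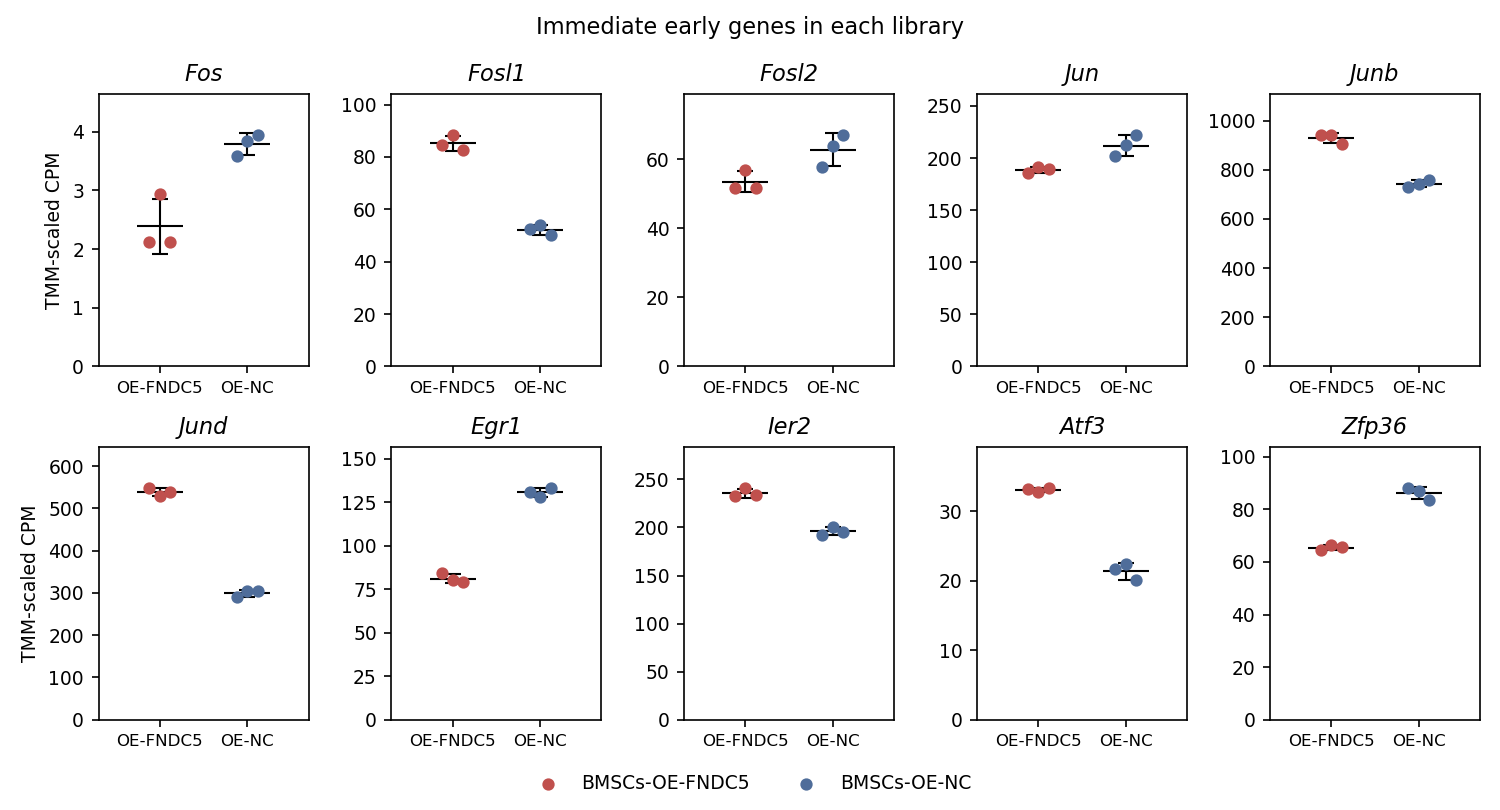
TMM-scaled CPM of the 10 immediate early genes, 1 panel per gene with an axis from 0, BMSCs-OE-FNDC5 left of BMSCs-OE-NC (points, libraries; horizontal line and error bar, mean and SD, n = 3 each). The groups do not overlap in any gene, from Fos at 2.12 to 2.93 CPM in BMSCs-OE-FNDC5 and 3.59 to 3.94 CPM in BMSCs-OE-NC up to Junb at 907 to 941 CPM and 731 to 759 CPM.

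Fos codes for c-Fos, the AP-1 subunit whose transient induction defines the class. It had only 32, 43 and 32 counts in BMSCs-OE-FNDC5 libraries, against 73, 77 and 78 in BMSCs-OE-NC libraries, or 2.12, 2.93 and 2.12 CPM against 3.59, 3.84 and 3.94 CPM. The highest BMSCs-OE-FNDC5 library lay below the lowest BMSCs-OE-NC library, and its replicate 2 stood above the other 2. Fos fell by 0.66 on the log2 scale (SE 0.20, adjusted p = 0.01 from edgeR), the least precise estimate of the 10, and with DESeq2 it missed the threshold (log2 fold change -0.64, adjusted p = 0.051).

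Fosl1 codes for Fra-1, a Fos relative without the strong activation domain of c-Fos that builds up later and is itself an AP-1 target. It measured 84.7, 88.3 and 82.6 CPM in BMSCs-OE-FNDC5, against 52.3, 53.9 and 50.1 CPM in BMSCs-OE-NC. All 3 BMSCs-OE-FNDC5 libraries stood far above the other group relative to the spread within groups (85.2 ± 2.89 and 52.1 ± 1.89 CPM, SD, n = 3 each). Its log2 fold change was 0.71 (SE 0.04, adjusted p = 6.8e-08 from edgeR), and 0.34 by library size only.

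Fosl2 codes for Fra-2, the relative that acts in bone and cartilage formation. Its levels were 51.9, 57.0 and 51.6 CPM in BMSCs-OE-FNDC5 and 57.7, 63.8 and 67.0 CPM in BMSCs-OE-NC. The groups were separate by a narrow margin, with replicate 2 of BMSCs-OE-FNDC5 just under replicate 1 of BMSCs-OE-NC. Fosl2 fell by 0.23 on the log2 scale (SE 0.06, adjusted p = 0.0057 from edgeR), with values of -0.60 by library size only and -0.78 with the length trend removed. Its row is 744 bases long in the table over a span of 18060 bases, the shortest length of the 10. Both its per-length level and its value with the length trend removed rest on that length.

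Fosl1 and Fosl2 therefore changed places in the count of reads. The ratio of Fosl1 to Fosl2 counts, which no scaling between libraries can alter, was 1.63, 1.55 and 1.60 in BMSCs-OE-FNDC5 and 0.907, 0.844 and 0.748 in BMSCs-OE-NC. As percentages of the Fos-family FPKM (the deposited unit that divides by gene length) over Fos, Fosb, Fosl1 and Fosl2, Fosl1 took 40.8% ± 0.672 in BMSCs-OE-FNDC5 and 26.3% ± 1.86 in BMSCs-OE-NC (SD, n = 3 each), and Fosl2 took 57.1% and 70.8%. Fosl2 stayed the larger share per length in both groups. Fos itself took 1.19% and 2.0%, and the ratio of Fosl1 to Fos counts was 40.0, 30.1 and 39.0 in BMSCs-OE-FNDC5 and 14.6, 14.0 and 12.7 in BMSCs-OE-NC. On the scaling the deposited values carry, the family sum was 125.9 ± 6.03 FPKM in BMSCs-OE-FNDC5 and 117.2 ± 5.86 FPKM in BMSCs-OE-NC (SD, n = 3 each), most of it Fosl2 in both. Unlike the ratios, this sum depends on the scaling between libraries, and also on the short length of the Fosl2 row. By library size only the log2 fold changes were 0.34 for Fosl1, -0.60 for Fosl2 and -1.03 for Fos.

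Jund differed most among the Jun genes with TMM scaling, while by library size only Jun (-0.54) differed more than Jund (0.48). JunD is the steadily expressed member that restrains growth in many cells, and its mRNA measured 547, 529 and 539 CPM in BMSCs-OE-FNDC5, against 289, 303 and 305 CPM in BMSCs-OE-NC. Every BMSCs-OE-FNDC5 library was well above every BMSCs-OE-NC library. The log2 fold change of Jund was 0.85 (SE 0.03, adjusted p = 4.2e-10 from edgeR).

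Junb codes for JunB, which in many settings opposes c-Jun. Its levels were 941, 941 and 907 CPM in BMSCs-OE-FNDC5 and 731, 741 and 759 CPM in BMSCs-OE-NC. Junb rose by 0.32 on the log2 scale (SE 0.03, adjusted p = 4.4e-07 from edgeR) but was at -0.05 (adjusted p = 0.11) by library size only, so that the direction of this gene rested on the scaling.

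Jun codes for c-Jun, the partner that gives AP-1 its strongest activity and that JNK phosphorylates. It measured 185, 191 and 190 CPM in BMSCs-OE-FNDC5 and 202, 212 and 222 CPM in BMSCs-OE-NC. The groups were separate but close. Jun fell by 0.17 on the log2 scale (SE 0.04, adjusted p = 0.0018 from edgeR), and turned to 0.11 (adjusted p = 0.019) when the trend of counts with gene length in each library was removed.

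The Jun genes also shifted against each other in count ratios, which do not depend on the scaling between libraries. The ratio of Jund to Jun counts was 2.95, 2.77 and 2.84 in BMSCs-OE-FNDC5, against 1.44, 1.43 and 1.37 in BMSCs-OE-NC, and the ratio of Junb to Jun counts was 5.08, 4.92 and 4.78 against 3.63, 3.49 and 3.42. The length trend bears on these ratios, since with it removed the log2 fold changes were 0.67 for Jund, 0.19 for Junb and 0.11 for Jun. Of the Jun-family FPKM, Jund took 35.5% ± 0.607 in BMSCs-OE-FNDC5 and 26.8% ± 0.288 in BMSCs-OE-NC (SD, n = 3 each). Junb took 57.7% and 62.8%, and Jun took 6.76% and 10.3%. On the scaling the deposited values carry, the family sum was 903.9 ± 10.6 FPKM in BMSCs-OE-FNDC5 and 652.6 ± 14.1 FPKM in BMSCs-OE-NC (SD, n = 3 each), most of it Junb in both. Unlike the ratios, this sum depends on the scaling between libraries. By library size only the log2 fold changes were -0.05 for Junb, 0.48 for Jund and -0.54 for Jun.

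**Figure D2:**
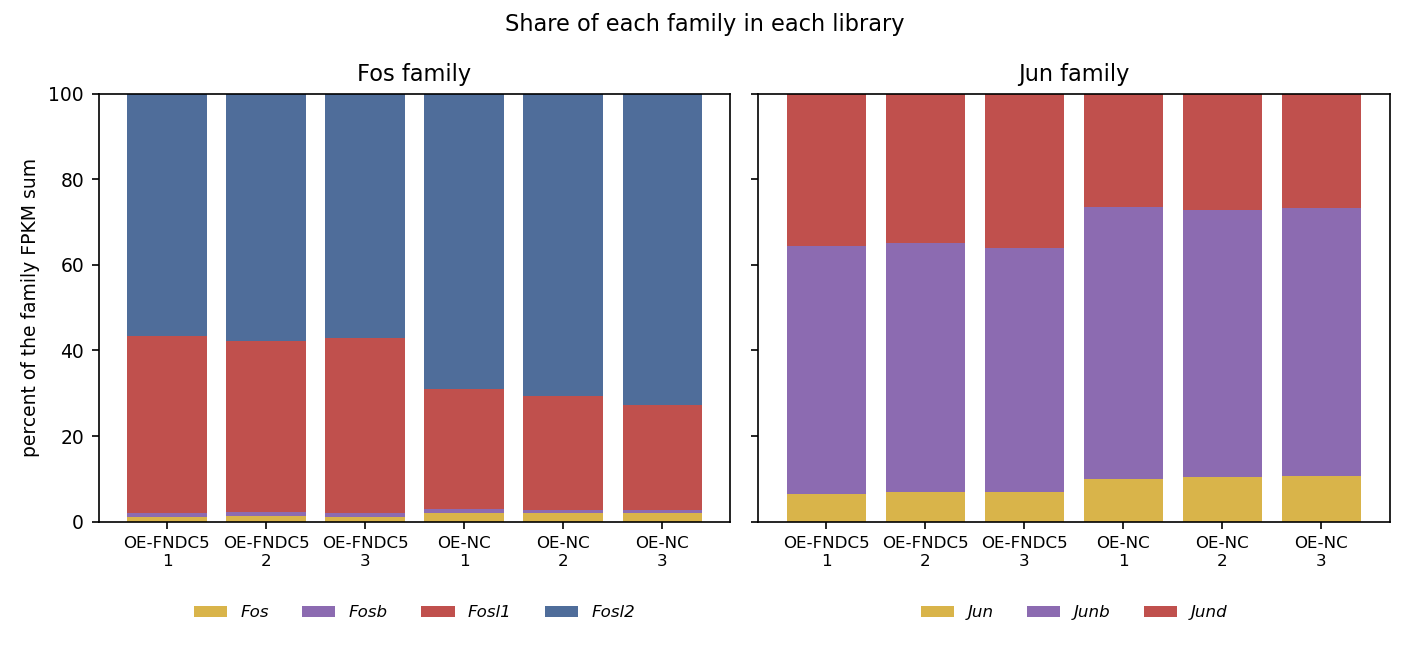
Share of the Fos-family and the Jun-family FPKM (percent) taken by each gene in each library, BMSCs-OE-FNDC5 libraries left of BMSCs-OE-NC libraries. Fosl1 takes 40.8% of the Fos family in BMSCs-OE-FNDC5 and 26.3% in BMSCs-OE-NC on average, and Jund takes 35.5% and 26.8% of the Jun family.

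Egr1 codes for a zinc finger factor that growth factors and injury induce through SRF, and its promoter stretch above holds 2 CArG boxes. It measured 84.4, 80.1 and 79.0 CPM in BMSCs-OE-FNDC5, against 131, 128 and 133 CPM in BMSCs-OE-NC. The groups were far apart relative to their spread (81.2 ± 2.85 and 130.7 ± 2.53 CPM, SD, n = 3 each). Egr1 fell by 0.69 on the log2 scale (SE 0.04, adjusted p = 2.2e-08 from edgeR). With the length trend removed it was at -0.40, and Fos at -0.87.

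Atf3 codes for a bZIP protein of the ATF family that is induced by many stresses and can repress transcription. It measured 33.2, 32.7 and 33.3 CPM in BMSCs-OE-FNDC5 and 21.7, 22.4 and 20.1 CPM in BMSCs-OE-NC. The 3 BMSCs-OE-FNDC5 libraries were nearly equal and all above the other group. Its log2 fold change was 0.63 (SE 0.07, adjusted p = 6.9e-06 from edgeR), opposite to that of Egr1 and at 0.26 by library size only, and the ratio of Atf3 to Egr1 counts was 0.393, 0.409 and 0.422 in BMSCs-OE-FNDC5 and 0.166, 0.175 and 0.151 in BMSCs-OE-NC.

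Ier2 codes for a small nuclear protein of the early response. Its levels were 232, 241 and 234 CPM in BMSCs-OE-FNDC5 and 192, 201 and 196 CPM in BMSCs-OE-NC, without overlap. Ier2 rose by 0.26 on the log2 scale (SE 0.03, adjusted p = 1.1e-05 from edgeR), but was at -0.11 (adjusted p = 0.009) by library size only and at 0.01 (adjusted p = 0.79) with the length trend removed. The deposited table calls the gene a pseudogene and RefSeq calls it protein-coding.

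Zfp36 codes for tristetraprolin, which binds AU-rich elements and recruits the enzymes that remove poly(A) tails, on early response mRNAs among others. It measured 64.6, 66.3 and 65.5 CPM in BMSCs-OE-FNDC5, against 88.0, 87.1 and 83.7 CPM in BMSCs-OE-NC. The groups were separate and the BMSCs-OE-FNDC5 libraries nearly equal. Zfp36 fell by 0.40 on the log2 scale (SE 0.04, adjusted p = 2.8e-06 from edgeR), and was at -0.77 by library size only. Of the promoters with CArG boxes, both Egr1 and Zfp36 belonged to lower genes, and of those with a CRE, both Jund and Ier2 belonged to higher genes, the last not by library size only. Among all tested genes with a promoter entry 38.3% were higher and 40.4% lower, among the 94 with a CArG box 37.2% and 39.4%, and among the 272 with a CRE 41.5% and 36.0%, so genes with these letters were divided between the directions.

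**Figure D3:**
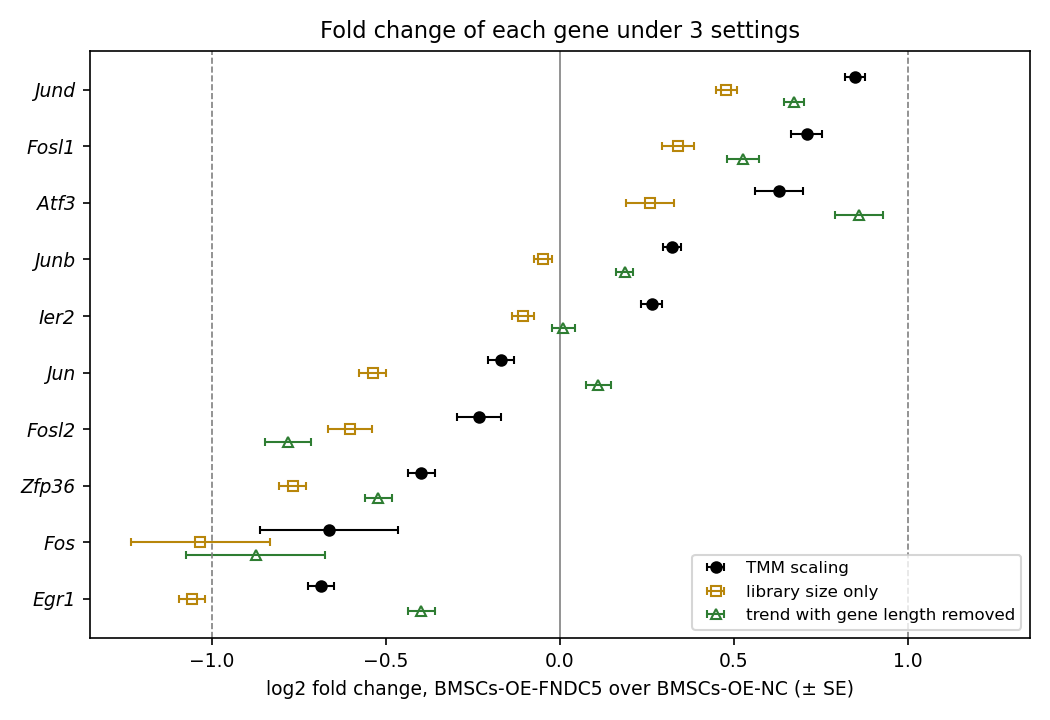
Log2 fold change of each immediate early gene (horizontal axis, positive where BMSCs-OE-FNDC5 was higher than BMSCs-OE-NC) with TMM scaling, by library size only and with the length trend removed; error bars are SE and dashed lines mark -1 and 1. With TMM scaling values run from 0.85 for Jund to -0.69 for Egr1, and the direction turns by library size only for Junb (-0.05) and Ier2 (-0.11) and with the length trend removed for Jun (0.11).

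Per length, the order of levels was alike at its top and bottom. In BMSCs-OE-FNDC5 the mean FPKM was 521.8 for Junb, 321.0 for Jund, 160.4 for Ier2, 72.0 for Fosl2, 61.1 for Jun, 51.3 for Fosl1, 36.2 for Zfp36, 26.0 for Egr1, 11.4 for Atf3 and 1.51 for Fos. In BMSCs-OE-NC it was 410.0 for Junb, 175.1 for Jund, 131.2 for Ier2, 83.0 for Fosl2, 67.5 for Jun, 46.8 for Zfp36, 41.0 for Egr1, 30.8 for Fosl1, 7.23 for Atf3 and 2.34 for Fos. Only Fosl1 changed its rank relative to other genes, standing above Zfp36 and Egr1 in BMSCs-OE-FNDC5 and below them in BMSCs-OE-NC. No 2 neighbours in either order overlapped in their libraries. The position of Fosl2 depends on its short length in the table.

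By the rule for likeness (the smallest root mean square difference of centred log2 CPM over the 6 libraries), the tested genes closest to Fos were Plekhg2 (0.0365) and Mob3c (0.0424). Those closest to Egr1 were Stx12 (0.0236) and Trmt6 (0.0268), and those closest to Jund were Timm22 (0.0108) and Cox8a (0.0132). No immediate early gene was among them. With so few genes kept from all tested genes, that absence was likely beforehand and says nothing about shared regulation.

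Related lists are described next by their counts, and the largest rises and falls named from each are among called genes whose mean reached 10 CPM in the higher group. The counts of every list stand beside 36.9% higher and 38.8% lower among all 12104 tested genes with TMM scaling. By library size only 2659 of all tested genes were higher and 6709 lower, and with the length trend removed 4642 and 4050. The remaining AP-1 and Maf subunits, 11 tested, were higher in 3 cases, lower in 3 and did not pass in 5, with a median log2 fold change of 0.17 (-0.20 by library size only and also with the length trend removed). Fosb, the fourth Fos gene, measured 4.28 CPM in BMSCs-OE-FNDC5 and 3.80 CPM in BMSCs-OE-NC, with a log2 fold change of 0.17 (adjusted p = 0.34 from edgeR) and of 0.58 (adjusted p = 0.0064) with the length trend removed. The small Maf genes Maff (0.91) and Mafk (0.34, but -0.03 by library size only) were the largest rises. Maf (-1.36) and Atf7, an ATF that pairs with Jun (-0.88), were the largest falls.

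Other immediate early genes were likewise divided, with 11 higher, 18 lower and 7 not passing among 36 tested and a median of -0.12 (7 higher and 28 lower by library size only). Ier3, a regulator of survival under stress, measured 1476 CPM in BMSCs-OE-FNDC5 and 754.9 CPM in BMSCs-OE-NC (log2 fold change 0.97). Dusp1, the phosphatase that ends p38 and JNK signals, measured 365.1 and 206.0 CPM (0.83). The orphan nuclear receptors Nr4a3 (26.8 and 69.4 CPM, -1.37) and Nr4a1 (695.0 and 852.2 CPM, -0.29) were lower in BMSCs-OE-FNDC5. Myc was at 101.8 CPM in BMSCs-OE-FNDC5 and 103.3 CPM in BMSCs-OE-NC and did not pass the test (log2 fold change -0.02, adjusted p = 0.69 from edgeR), though it was at -0.39 by library size only and at 0.15 with the length trend removed.

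Upstream of the immediate early genes, the ERK, JNK and p38 cascade had 7 higher, 15 lower and 3 not passing of 25 tested genes, with a median of -0.41 (-0.78 by library size only and -0.25 with the length trend removed). Over all tested genes 36.9% were higher and 38.8% lower, with a median of -0.04. Mapk3, which codes for the kinase ERK1, measured 771.9 CPM in BMSCs-OE-FNDC5 and 418.9 CPM in BMSCs-OE-NC (log2 fold change 0.88). Mapk8, which codes for the Jun kinase JNK1, fell to 2.68 CPM in BMSCs-OE-FNDC5, against 7.01 CPM in BMSCs-OE-NC (-1.39). Hras rose by 0.83, and the kinases Rps6ka5 (MSK1, -2.65) and Rps6ka3 (RSK2, -1.98) showed the largest falls.

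The SRF, ternary complex and CREB factors had 3 higher, 7 lower and 3 not passing of 13 tested, with a median of -0.51. By library size only 0 were higher and 9 lower (median -0.88), and with the length trend removed 4 were higher and 3 lower (median -0.08). Srf itself did not pass the test (log2 fold change 0.07, adjusted p = 0.097 from edgeR), and was at -0.30 by library size only and 0.54 with the length trend removed. The ternary complex factor Elk1 was at 0.28 (-0.09 by library size only) and the CREB coactivator Crtc2 at 0.45 (0.08, no longer called, by library size only). The other ternary complex factors of the list, Elk3 (-0.51) and Elk4 (-1.17), were lower. With the length trend removed Elk3 was at -0.08 and Elk4 at -0.12, and neither was called. The coactivator Crebbp (-1.26) and Atf1 (-1.19) were the largest falls, and with the length trend removed Crebbp was at -0.23 and no longer called. The MAPK phosphatases and feedback inhibitors had 5 higher, 9 lower and 3 not passing of 17 tested (median -0.61, but -0.98 by library size only and -0.06 with the length trend removed), with Dusp1 and Dusp5 (0.60) the largest rises and Spred2 (-1.27) and Dusp7 (-0.88) the largest falls. The protein partners of AP-1 and Egr1 had 5 higher and 7 lower of 12 tested, while by library size only all 12 were lower, and with the length trend removed 3 were higher and 6 lower. Nab1, a corepressor of Egr proteins, fell by 1.60 on the log2 scale and the corepressor Ncor1 fell by 1.33, shrinking to -0.40 with the length trend removed. Jdp2, an AP-1 repressor, was at 0.22 and Hdac3 at 0.17, and with the length trend removed Jdp2 turned to -0.15 and Hdac3 was at 0.04 and no longer called.

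Zfp36 was not the only lower gene among the proteins that bind regulatory elements of mRNA 3′ ends. Of 13 tested genes in that list 12 were lower, 1 did not pass and none was higher with edgeR (none at an unadjusted p under 0.05 either, and none with DESeq2, which called 10 lower), with a median of -0.92, beside 38.8% lower among all tested genes. The Zfp36 relatives Zfp36l1 measured 63.5 CPM in BMSCs-OE-FNDC5 and 149.3 CPM in BMSCs-OE-NC (log2 fold change -1.23), and Zfp36l2 was at -1.11. The largest fall was of Pum2 (-1.95), which binds Pumilio elements and not AU-rich elements. Elavl1, which codes for the stabilizing protein HuR, was at -0.43. None of the list was higher and 12 were lower by library size only, and with the length trend removed none was higher and 11 were lower. The deadenylation and decapping genes, which carry out the decay, had 9 higher, 16 lower and 9 not passing of 34 tested, with a median of -0.12. By library size only 5 were higher and 24 lower, with a median of -0.49. The exosome genes Exosc4 (1.16) and Exosc5 (0.99) were at the top and the deadenylase Cnot6l (-2.41) and the helicase Ddx6 (-2.13) at the bottom.

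**Figure D4:**
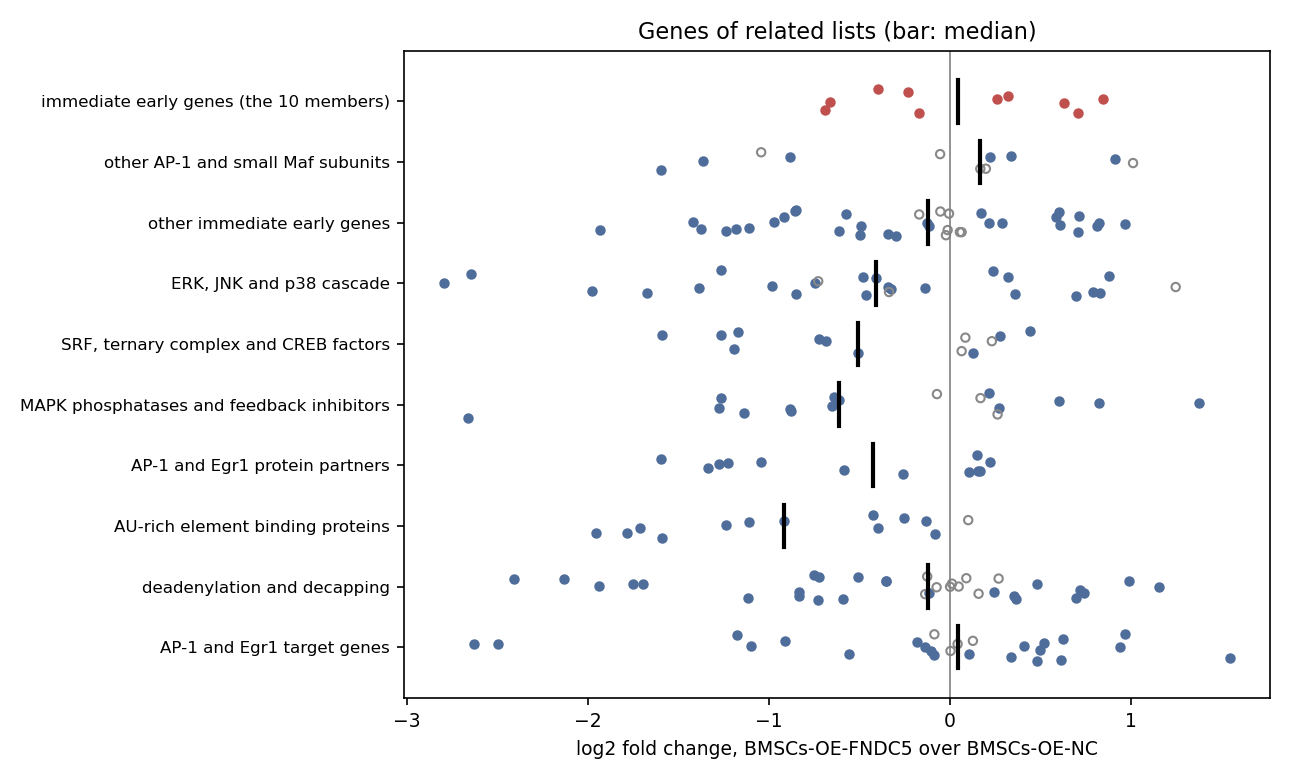
Log2 fold change of every tested gene (horizontal axis, positive where BMSCs-OE-FNDC5 was higher than BMSCs-OE-NC) in the immediate early genes and in each related list; filled points passed an adjusted p under 0.05, open points did not, and the vertical bar is the median of the list. The 10 immediate early genes lie between -0.69 and 0.85 with a median of 0.05, and the proteins that bind mRNA elements have a median of -0.92.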

How the data were processed

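The authors deposited gene counts and FPKM for the 6 libraries, made from Illumina TruSeq reads. The submitters' processing notes name the aligners HISAT2 2.1.0, Bowtie2 2.2.3 and TopHat2, the counter HTSeq 0.6.0, CASAVA, DESeq2 and a mouse build, while 32883 of the 33508 gene identifiers are rat Ensembl identifiers. The rat build and the strand setting of the counting are not given in the sources used here. Deposited counts were whole numbers, and deposited FPKM values equalled counts divided by the gene length and by 1 constant per library.

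The comparison was made on counts with edgeR 4.0.16 under R 4.3.3 (filterByExpr with a minimum count of 10 and minimum total of 15, TMM, glmQLFit and glmQLFTest, condition as the only term), with Benjamini-Hochberg adjustment across the 12104 genes tested. This rests on 3 libraries per group, where an exact permutation test of 1 value cannot go below a two-sided p of 0.1. The procedure was tested on simulated data in which few genes changed, in either direction, and no length trend was present. That simulation does not bear on how far results depend on scaling or gene length. Alternatives were RLE, upper-quartile and library-size scaling, no filter, at least 10 counts in every library, DESeq2 1.42.0, limma-voom (limma 3.58.1), limma-trend on log2(FPKM + 1) and log2(FPKM + 0.1), replicate number as a block, removal of each library's lowess trend of log2 counts with gene length (span 0.3), and each library left out in turn. Family shares were computed from FPKM, and also from CPM.

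Named were all 10 immediate early genes, from each related list the 2 largest rises and 2 largest falls past an adjusted p of 0.05 with a mean of at least 10 CPM in the higher group, genes of the pathway chosen whatever their values, and the nearest patterns of Fos, Egr1 and Jund. Some genes that this rule would have named are not reported here. Elavl1, Elk3 and Elk4 were added after their values were seen. The members and lists were chosen with earlier results of these data known. Figures were drawn with matplotlib 3.10.9 in Python 3.11.15.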

Additional observations from a re-analysis of the deposited data

How the results depend on the processing

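Across 17 alternatives Fosl1, Fosl2, Jund, Egr1, Atf3 and Zfp36 kept their direction and their call in all 17, Fos, Jun and Junb in 16 and Ier2 in 15. By library size only, 3 immediate early genes were higher instead of 5, 2 passed both thresholds instead of 0, Junb was at -0.048 and Ier2 at -0.11, and 24 genes of the related lists were higher instead of 49. That setting called 2659 genes higher and 6709 lower over the whole table, against 4469 and 4692, or 28.4% against 48.8% higher among the called. With the length trend removed Jun was at 0.11. The median log2 fold change of the 10 genes, 0.05, was 0.078 with RLE scaling, -0.057 with upper-quartile scaling, -0.32 by library size only and 0.017 with at least 10 counts in every library, and ranged over 0.016 to 0.062 with 1 library left out (lowest without replicate 1 of BMSCs-OE-NC), a median near 0 whose sign carries no call. The difference in the Jun share was -5.5 percentage points in CPM and -3.57 in FPKM. On log2(FPKM + 1), 1572 genes passed both thresholds instead of 3315.

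Replicate numbers showed no sign of pairing the samples: the deviations of same-numbered libraries correlated at 0.0213, -0.0138 and -0.0067, and not every library correlated best with its own number. Such correlations cannot show whether same-numbered libraries were cultured or handled together. With the replicate block 5 immediate early genes were higher and 5 lower, as without it, and 4399 genes were higher and 4628 lower over the whole table. Depth limits Fos, with 32 to 78 counts per library.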

Other observations

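The genes that AP-1 and Egr1 are known to activate in other cells, 25 tested, were divided like the immediate early genes themselves, with 11 higher, 10 lower and 4 not passing in BMSCs-OE-FNDC5 against BMSCs-OE-NC and a median log2 fold change of 0.04 (6 higher and 13 lower by library size only). Among all tested genes 36.9% were higher and 38.8% lower. The urokinase receptor Plaur measured 472.3 ± 16.4 CPM in BMSCs-OE-FNDC5 and 241.7 ± 4.81 CPM in BMSCs-OE-NC (SD, n = 3 each), a log2 fold change of 0.97, and the chromatin protein Hmga1 was at 1.55. With the length trend removed Plaur shrank to 0.54 and Hmga1, whose row is only 324 bases long, to 0.92. The matrix glycoprotein tenascin C (Tnc) measured 424.3 ± 5.83 CPM in BMSCs-OE-FNDC5 and 908.7 ± 42.6 CPM in BMSCs-OE-NC (SD, n = 3 each), a log2 fold change of -1.10 that shrank to -0.24 with the length trend removed.

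Of the tested genes with a promoter entry, 263 held the AP-1 letters TGAGTCA in the window, and 50.2% of them were higher and 30.0% lower in BMSCs-OE-FNDC5, with a median log2 fold change of 0.22. Over all 8039 tested genes with an entry, 38.3% were higher and 40.4% lower, with a median of -0.04. The AP-1 site was 1 of 6 motifs searched. It was singled out after the values of all 6 were seen, and no test of the difference and no other scaling was run.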
